A study of Drosophila melanogaster with 35 samples.

Results

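The glutathione S-transferase genes described here are the 35 rows, of 14649 in the fat body count table, whose gene symbol is Gst followed by a class letter (D, E, O, S, T or Z) and a number. Class D (delta) has 11 genes, class E (epsilon) 14, class O (omega) 3, class S (sigma) 1, class T (theta) 4 and class Z (zeta) 2. Any gene of these classes under another symbol is not included. All 35 matched a protein-coding gene of the BDGP6 annotation. A low-count filter kept 27 of them for testing, comprising 6 of class D, 11 of class E and every gene of the other classes.

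Glutathione S-transferases are dimeric enzymes that join the tripeptide glutathione to electrophiles, including insecticides, plant toxins and the aldehydes that form when lipids are oxidised. The delta and epsilon classes are specific to arthropods and have expanded by tandem duplication, and several of their genes respond to the transcription factor CncC (cnc), which the adaptor Keap1 holds in check. The other classes are shared with vertebrates and include enzymes with a fixed place in metabolism. The fat body of the fly combines the tasks of liver and adipose tissue and is a main site of detoxification.

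Fat bodies came from female Drosophila melanogaster aged 30 days, which had mated and then lived apart from males, and their poly(A) RNA was sequenced. S106 is a GeneSwitch driver, active in the fat body and gut, that turns on a UAS transgene when flies eat the steroid RU486, and flies of every group carried it. S106>UASfoxo switch flies (4 libraries) carried a UAS transgene for the forkhead factor dFOXO, ate 200 µM RU486 for 21 days and then ate control food for 7 days. S106>UASfoxo control flies (4 libraries) had the same genotype and an induction label without RU486. S106 switch flies (4 libraries) carried the driver without the transgene and went through the RU486 and recovery feeding, and S106 control flies (5 libraries) had the driver alone and an induction label without RU486. Titles call the S106 groups WT, and the treatment text names RU486 for every sample, so the induction label and the titles set the groups. Whether libraries of the same group were made from different cultures is not stated in the labels, and p-values here measure only the spread between these libraries. In dissected tissue, fewer cells of a type and less RNA per cell cannot be told apart.

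Total counts ran from 6708078 to 27527703 per library, and the 35 genes held 0.136% of them in S106>UASfoxo switch replicate 1 up to 0.236% in S106>UASfoxo control replicate 4. All 12 fat body markers had a count in every library. Ovary and egg markers varied most, with a mean log2 CPM (counts relative to the TMM-scaled library total) of -1.84 in S106>UASfoxo control replicate 2 and 6.68 in S106 switch replicate 4. Enterocyte markers were highest in S106>UASfoxo switch replicate 2. The mRNA of foxo, measured a week after induction ended, ranged from 95.0 to 240.1 CPM in S106>UASfoxo switch libraries, from 72.5 to 177 CPM in S106>UASfoxo control, from 90.6 to 155 CPM in S106 switch and from 83.3 to 194 CPM in S106 control libraries. Its log2 difference between the S106>UASfoxo switch and control groups was 0.63 ± 0.35 (SE), with an edgeR adjusted p of 0.457.

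Levels are compared between genes as RPKM, the TMM-scaled CPM per kilobase of exon. Over the 17 libraries GstE12 had the highest level, 448 ± 156 RPKM (SD), followed by GstD1 with 323 ± 76.0, GstE9 with 245 ± 94.1 and GstT4 with 161 ± 64.8 RPKM. These 4 genes made up 72.4 ± 4.57% of the summed RPKM of the family, between 64.6% and 78.1% in single libraries. GstD1 encodes the fly's best-known glutathione S-transferase, which can detoxify DDT and whose regulatory region serves as a common reporter of oxidative stress. Among 9739 tested genes with a known exon length, GstE12 ranked 202, GstD1 254, GstE9 319 and GstT4 468 by mean RPKM. GstE1 followed at 67.2 ± 15.8 RPKM and GstO3 at 50.9 ± 18.3 RPKM, and the ranges of these neighbours in the order overlapped across libraries. The lowest tested genes were GstE5 at 1.39 ± 1.02 RPKM, GstD10 at 1.28 ± 0.569 RPKM and GstD5 at 1.15 ± 0.793 RPKM.

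**Figure D1:**
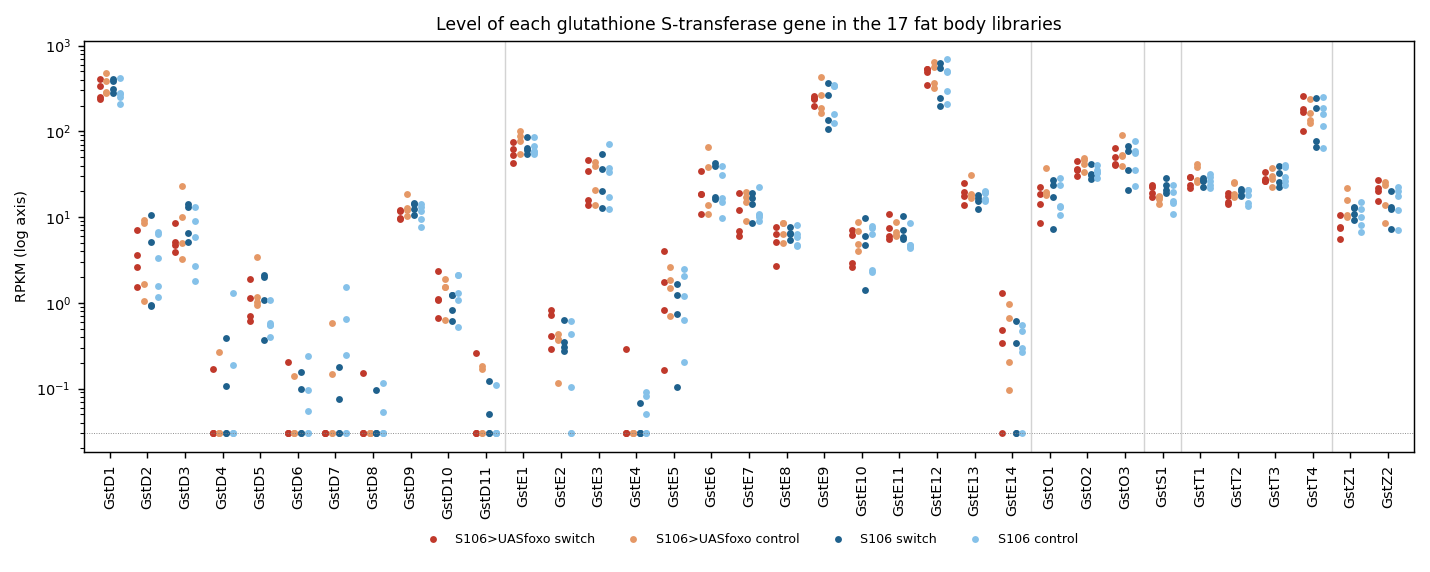
Level of each of the 35 glutathione S-transferase genes, on a log axis in RPKM, with 1 point per library coloured by group and grey lines between classes. Points on the dotted line had no count. GstE12, GstD1, GstE9 and GstT4 stand highest, the groups of each of the 4 pairwise comparisons overlap for every tested gene, and GstD4, GstD6, GstD7, GstD8, GstD11 and GstE4 lie mostly at or near 0.

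Levels differed widely between neighbours in the tandem clusters. The 11 class D genes lie on chromosome 3R between positions 12364776 and 12385624 (BDGP6). The 3 genes of its minus strand were all tested, GstD10, GstD9 (12.1 ± 2.55 RPKM) and GstD1. Of the 8 genes on its plus strand, from GstD2 to GstD11, only GstD2 (4.25 ± 3.27 RPKM), GstD3 (7.91 ± 5.37 RPKM) and GstD5 passed the filter. GstE1 to GstE10 lie on 2R between 18396638 and 18409835, with GstE10 alone on the minus strand. Along the plus strand GstE1 is followed by GstE2 at 0.367 ± 0.236 RPKM, GstE3 at 30.8 ± 16.9 RPKM and GstE4 at 0.0340 ± 0.0732 RPKM. Next in order come GstE5, GstE6 at 25.9 ± 15.4 RPKM, GstE7 at 13.3 ± 4.99 RPKM, GstE8 at 6.24 ± 1.57 RPKM and GstE9. GstE1 and GstE3 thus stood beside genes close to 0, while GstD1, the highest gene of the delta cluster, lay between GstD9 and GstD2.

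The other epsilon genes lie apart on 2R, GstE11 at 18503608 to 18505025, GstE12 at 24766718 to 24768172, GstE13 at 9122125 to 9123309 and GstE14 at 13239729 to 13241013. GstS1, known as an abundant protein of flight muscle that conjugates oxidised lipid aldehydes, lies at 17093246 to 17099501 of 2R and stood at 19.0 ± 4.35 RPKM. GstT1 (28.02 ± 5.42 RPKM) and GstT2 (18.7 ± 3.46 RPKM) are neighbours on 2R between 9605988 and 9608350. The 2 other theta genes are on X, GstT3 (30.0 ± 5.93 RPKM) at 20467455 to 20469796 and GstT4 at 13404749 to 13409323. The omega genes selected by symbol, whose enzymes reduce dehydroascorbate and mixed disulfides, lie together on 3L between 8518885 and 8524866. GstO2 stood at 36.5 ± 6.31 RPKM and GstO1 at 19.0 ± 7.78 RPKM. GstZ2 (16.9 ± 6.32 RPKM) and GstZ1 (11.1 ± 4.02 RPKM), of the class whose enzymes isomerise maleylacetoacetate in tyrosine breakdown, are neighbours on 3R between 9455517 and 9460652. Exons of 7 genes overlap exons on the opposite strand, and the strand setting of the counting is not given in the sources used here. GstT2 shares 223 bp with CG12926, GstO2 61 bp with se, GstE9 40 bp with imd, GstE12 33 bp with CG3894, GstE1 and GstE10 share 20 bp with each other, and GstE13 6 bp with CG18659. Reads on those stretches are uncertain.

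The 8 genes below the filter had few counts. GstE14, also called noppera-bo and needed for ecdysteroid synthesis in the prothoracic gland and ovary, had 74 counts over the 17 libraries and GstE2 had 62. GstD7 had 40 counts, of which 27 came from S106 control replicate 4, and GstD4 had 21, of which 10 came from S106 control replicate 1. GstD11, GstD6, GstE4 and GstD8 had 9, 8, 6 and 4 counts. A count of 0 allows up to 3 counts, or 0.447 CPM in the shallowest library and 0.109 CPM in the deepest, for counting error only. At this depth no difference between the groups was detectable for these 8 genes.

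By class, the summed RPKM of the family was 53.2 ± 6.44% epsilon, 22.5 ± 6.62% delta, 14.6 ± 1.94% theta, 6.70 ± 0.740% omega, 1.75 ± 0.315% zeta and 1.28 ± 0.557% sigma (SD, n = 17 libraries). The balance of delta and epsilon shifted between libraries of one group. Class D held 37.4% in S106 switch replicate 4 and 16.7% in S106 switch replicate 2, and class E 38.9% and 59.3% in those libraries. The delta share was lowest in S106 control replicate 2 at 14.0% and in S106>UASfoxo control replicate 2 at 14.9%. These 2 libraries also had the lowest ovary and egg marker means, -1.40 and -1.84 log2 CPM, and S106 switch replicate 4 the highest. The part of that tissue in the class shares was not tested.

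**Figure D2:**
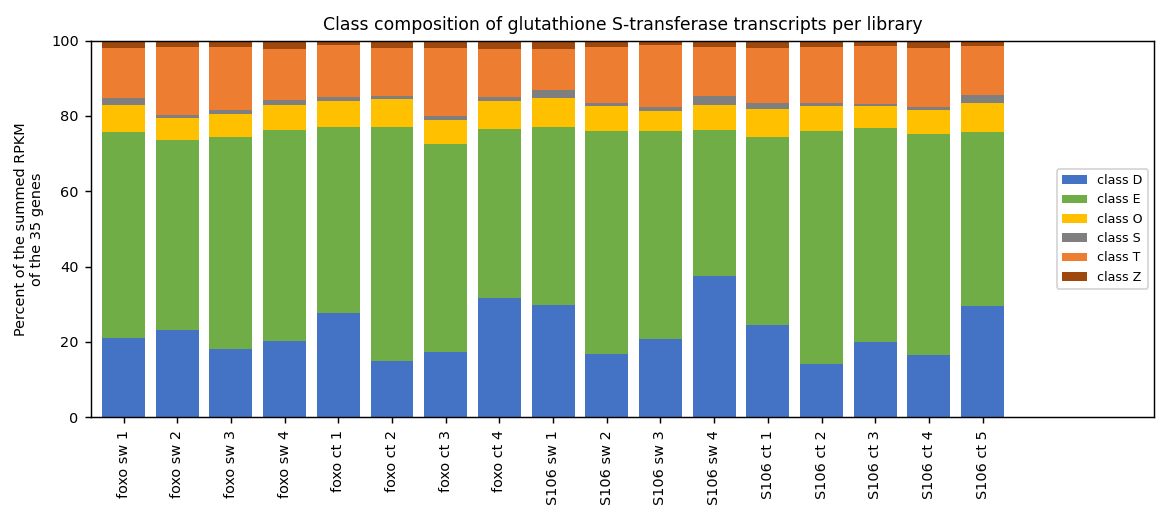
Percent of the summed RPKM of the 35 genes that fell in each class, with 1 bar for each of the 17 libraries (sw, switch; ct, control; foxo, S106>UASfoxo). Class E was the largest share in each library, from 38.9% to 62.2%, and class D ranged from 14.0% to 37.4%.

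The sum over the family averaged 1601 ± 292 RPKM in S106>UASfoxo switch, 1751 ± 228 in S106>UASfoxo control and 1540 ± 441 in S106 switch libraries (SD, n = 4 each), against 1559 ± 460 RPKM in S106 control (SD, n = 5). The differences between these group means were smaller than the spread within the groups. Genes differed in that spread. The within-group SD of log2 CPM had a median of 0.593 over the 27 tested genes, against 0.547 over all tested genes with an exon length. It was smallest for GstO2, at 0.223, and largest for GstD2, at 1.29.

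To ask what dFOXO induction left behind a week after its end, S106>UASfoxo switch libraries were compared with S106>UASfoxo control libraries. No glutathione S-transferase passed edgeR's quasi-likelihood test after Benjamini-Hochberg adjustment, nor did any of the 9819 genes tested (0%). Of the 27 genes, 22 had a log2 difference below 0 and 5 above, with a median of -0.26, while 51.5% of all tested genes lay below 0 and their median was -0.02. DESeq2 and limma-voom also called no member, and DESeq2 called 53 of all genes. With RLE size factors 23 of the 27 lay below 0. Below 0 were 6 of 6 delta, 9 of 11 epsilon, 3 of 3 omega, 3 of 4 theta and 1 of 2 zeta genes, and GstS1 was above. At an unadjusted p under 0.05 stood 1 gene, GstZ1, where 12.9% of all tested genes reached it. With the library round as a block 25 of 27 lay below 0 (median -0.27, all genes 0.05), and no gene was called. In that fit 6 members had an unadjusted edgeR p under 0.05, GstS1 (above 0), GstE1, GstZ1, GstT1, GstT2 and GstE7. The share of all genes at that p is not given for the block fit, so the count cannot be set against other genes. Without the block and without S106>UASfoxo control replicate 4, which had the largest family share of counts, the median was -0.16 with 23 genes below 0. Without S106>UASfoxo control replicate 2 it was -0.21, and the split fell to 17 below and 10 above. Without S106>UASfoxo switch replicate 2, which had the highest enterocyte markers, it was -0.41 with 24 below.

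GstZ1 had 6.92, 6.82, 5.10 and 9.69 CPM in the S106>UASfoxo switch libraries, against 9.54, 14.6, 9.21 and 20.2 CPM in the S106>UASfoxo control libraries. The highest switch library lay above 2 of the control libraries, so the groups overlapped. Its log2 difference was -0.91 ± 0.31 (SE), with an unadjusted p of 0.0101 and an edgeR adjusted p of 0.274. In S106 switch libraries GstZ1 had 11.9, 8.44, 11.6 and 9.87 CPM, against 11.4, 7.47, 13.8, 9.16 and 6.19 CPM in S106 control, and the 2 groups overlapped. Its neighbour GstZ2 differed by 0.24 ± 0.40 between the S106>UASfoxo groups, the opposite sign, with an adjusted p of 0.845.

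GstE1, the first plus-strand gene of the epsilon cluster, had 52.0, 44.4, 35.8 and 61.7 CPM in S106>UASfoxo switch libraries, against 64.0, 84.2, 45.1 and 73.7 CPM in S106>UASfoxo control. The lower values sat in the switch group, with overlap. Its log2 difference was -0.46 ± 0.23 (SE), with an edgeR adjusted p of 0.414. GstD1 had 204, 343, 212 and 283 CPM in the switch group, against 326, 243, 236 and 401 CPM in the control group. Its log2 difference was -0.21 ± 0.26, with an adjusted p of 0.780, and the groups were interleaved. The most abundant member, GstE12, stood at 491, 755, 684 and 743 CPM in the switch group, against 519, 897, 786 and 446 CPM in the control group, a log2 difference of 0.01 ± 0.41, and these groups overlapped as well. GstS1 had 51.2, 39.2, 43.0 and 53.5 CPM in the switch group, against 39.6, 32.4, 37.4 and 39.4 CPM in the control group, and differed by 0.33 ± 0.22 with an adjusted p of 0.541. Here 3 switch libraries lay above each control library and the other lay within their range.

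**Figure D3:**
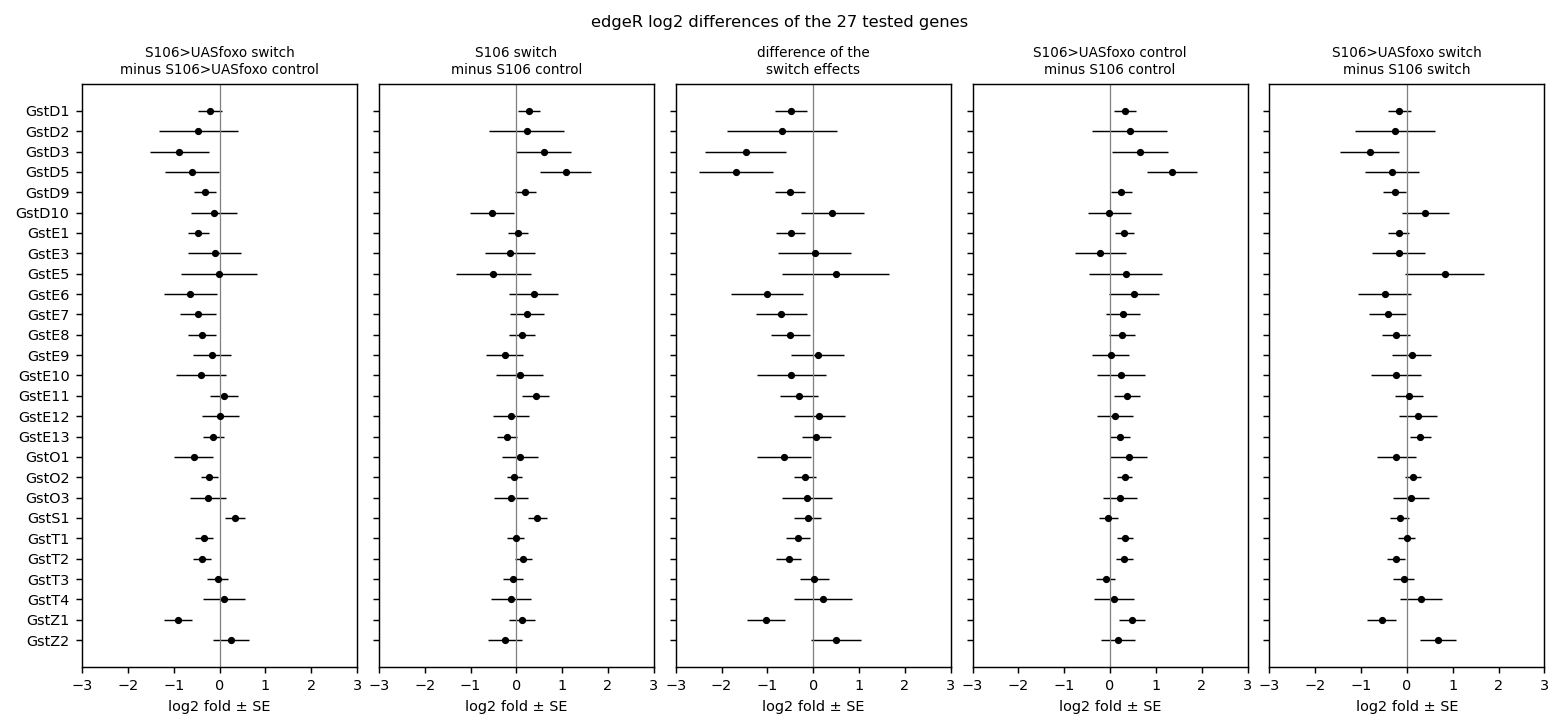
Log2 difference with its SE for each of the 27 tested genes (rows) in the 5 comparisons (panels), from the edgeR fit to all 17 libraries. In the first panel 22 points lie left of 0 and in the fourth 23 lie right of 0, and both panels use the S106>UASfoxo control libraries.

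The S106 groups, which lack the transgene, ask what RU486 feeding itself leaves behind, as S106 switch against S106 control. No member was called, and no gene of the 9819 was. The 27 genes were split, 15 above and 12 below 0, with a median of 0.07, while 48.4% of all tested genes lay below 0. The split moved with single libraries: without S106 control replicate 3 it was 21 above and 6 below (median 0.21), without S106 control replicate 4 it was 12 above and 15 below (median -0.02), and without S106 switch replicate 3 it was 12 and 15 (median -0.03). Without 3 libraries set aside for digestive or ovarian transcripts it was 22 and 5 (median 0.13). Ovary and egg markers were highest in S106 switch replicate 4, which was set aside. S106>UASfoxo switch replicate 4, S106 control replicate 1 and S106 switch replicate 1, also high in them, were kept. In this comparison all 19 tested ovary and egg markers lay above 0, with a median of 0.73, and none was called. At an unadjusted p under 0.05 stood 1 member, GstS1, against 0.693% of all tested genes. GstS1 had 53.9, 43.1, 47.4 and 64.5 CPM in S106 switch libraries, against 44.9, 33.1, 24.7, 34.7 and 53.3 CPM in S106 control. Its log2 difference was 0.45 ± 0.20, with an unadjusted p of 0.0412 and an edgeR adjusted p of 1.00. The groups overlapped, with S106 control replicates 1 and 5 inside the switch range. Those 2 control libraries had ovary and egg marker means of 5.64 and 4.41 log2 CPM. S106 switch replicates 1 and 4 had 5.51 and 6.68 log2 CPM, and the part of that tissue in GstS1 was not tested.

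GstD5 had 0.903, 1.77, 1.69 and 0.308 CPM in S106 switch libraries, against 0.469, 0.340, 0.492, 0.469 and 0.906 CPM in S106 control, a log2 difference of 1.08 ± 0.55 with an adjusted p of 1.00. Its total was 166 counts over the 17 libraries, so each value rests on few reads. GstD1 differed by 0.27 ± 0.24, with an adjusted p of 1.00. The 2 switch effects were set against each other in the same fit, and no member was called in that difference either. It was below 0 for 18 of the 27 genes, against 47.1% of all tested genes. Without S106 control replicate 3 or without S106 switch replicate 1 it was below 0 for 23, and without the 3 libraries set aside for 24. In the fit to all libraries 1 member, GstZ1, had an unadjusted p under 0.05, as did 1.88% of all genes. The difference of effects was -1.03 ± 0.42 for GstZ1 (adjusted p 0.950), -1.68 ± 0.81 for GstD5 (0.950), -0.48 ± 0.35 for GstD1 (0.950) and -0.12 ± 0.30 for GstS1 (0.956), all by edgeR. With the library round as a block it was below 0 for 21 of the 27 genes, and no gene was called. In that fit 5 members had an unadjusted edgeR p under 0.05, GstD1, GstE1, GstZ1, GstT2 and GstE7. For this block fit too the share of all genes is not given, so the count cannot be set against other genes.

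The comparison of S106>UASfoxo control with S106 control sets the genotypes side by side without RU486. It shares the S106>UASfoxo control libraries with the first comparison, so the signs in the 2 comparisons are not independent. Of the 27 genes, 23 were above 0 and 4 below, with a median of 0.28, where 48.5% of all tested genes lay above 0. Markers of other tissues also lay mostly on one side of 0, with 10 of 11 enterocyte markers below 0 (median -1.56) and 12 of 19 ovary and egg markers below 0 (median -0.98). Of the fat body markers 10 of 12 were below 0 (median -0.16). No marker of these lists was called, and their part in the family's values was not tested. No member was among the 4 genes called (0.0407%), and 1 member had an unadjusted p under 0.05, against 11.0% of all genes. That gene was GstD5, with 0.785, 0.862, 2.87 and 0.987 CPM in S106>UASfoxo control libraries. Its log2 difference from S106 control was 1.35 ± 0.55, with an edgeR adjusted p of 0.405, and replicate 3 held 28 of its counts. Without that library the difference was 0.70, and the difference of the 2 switch effects for GstD5 was -1.04. The highest S106 control library, at 0.906 CPM, lay within the S106>UASfoxo control range. Without S106>UASfoxo control replicate 4 the median over the family was 0.19. Libraries of the same round deviated together between the control groups, while the values above come from the fit without pairs. With the round as a block 26 of 27 genes were above 0 and no member was called. There 3 members had an unadjusted edgeR p under 0.05 (GstD1, GstD5 and GstE1), and the share of all genes in that fit is not given. With that block GstD1 differed by 0.42 ± 0.17 (edgeR adjusted p 0.232).

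GstO2, the least variable member, had 59.2, 81.0, 72.9 and 84.5 CPM in S106>UASfoxo control libraries, against 57.2, 59.1, 69.8, 62.0 and 50.2 CPM in S106 control. In the fit without the block it differed by 0.32 ± 0.17, with an adjusted p of 0.502. The lowest S106>UASfoxo control library lay among the S106 control values. GstD1 differed by 0.32 ± 0.24 in the fit without the block (adjusted p 0.687). GstS1 differed by -0.04 ± 0.20 (adjusted p 0.986), and its sign changed with the tool and the libraries used.

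After RU486 feeding, S106>UASfoxo switch against S106 switch left 10 of 27 genes above 0 and 17 below, with a median of -0.16, where 53.8% of all tested genes lay below 0. Of the ovary and egg markers 17 of 19 lay below 0 (median -0.66) and of the enterocyte markers 8 of 11 above (median 0.76), none called. No member was called among the 5 genes that were (0.0509%), and no member had an unadjusted p under 0.05, against 1.57% of all genes. Without S106 switch replicate 3 the median was 0.08, with 15 of 27 genes above 0. The zeta genes had the smallest p-values and opposite signs, GstZ1 at -0.55 ± 0.31 (adjusted p 0.978) and GstZ2 at 0.67 ± 0.40 (0.978). GstZ2 had 36.2, 50.3, 47.2 and 62.9 CPM in S106>UASfoxo switch libraries, against 30.4, 47.2, 28.8 and 17.0 CPM in S106 switch. The groups overlapped, with S106>UASfoxo switch replicates 1 and 3 below S106 switch replicate 2. GstD1 differed by -0.16 ± 0.25 (adjusted p 0.978) and GstS1 by -0.16 ± 0.22 (0.978). In all 4 pairwise comparisons the CPM values of the 2 groups overlapped for each of the 27 genes. Among all tested genes, the groups did not overlap for 4.16% in S106>UASfoxo switch against S106>UASfoxo control, 0.275% in S106 switch against S106 control, 3.69% in S106>UASfoxo control against S106 control and 1.12% in S106>UASfoxo switch against S106 switch.

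**Figure D4:**
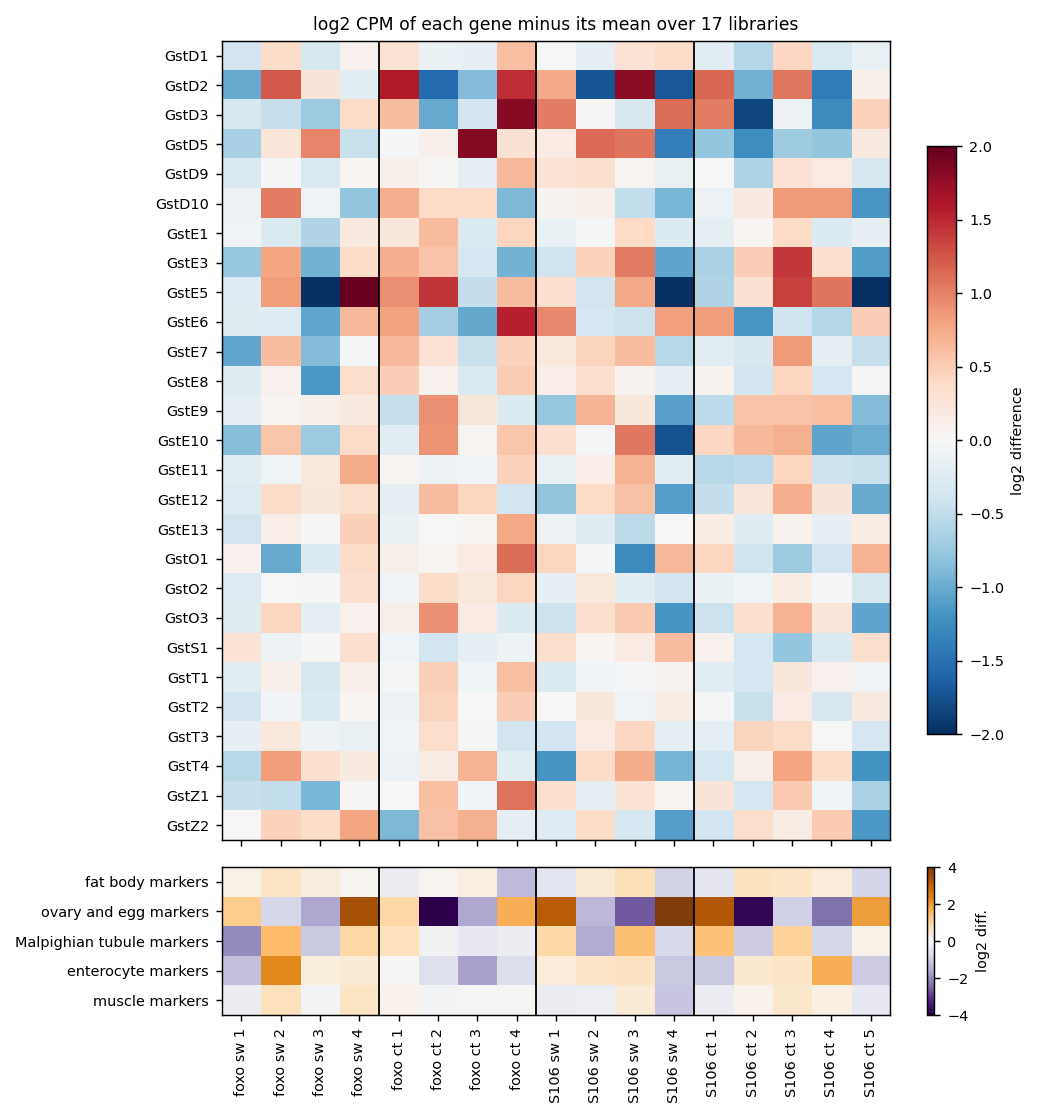
Log2 CPM of each tested gene minus its mean over the 17 libraries (upper panel), and the same for the mean of 5 marker lists (lower panel, own colour scale), with libraries in columns (sw, switch; ct, control; foxo, S106>UASfoxo). Colours vary among libraries of a group, and S106 switch replicates 1 and 4 and S106 control replicates 1 and 5, all high in ovary and egg markers, hold the 4 lowest values of GstE9, GstE12 and GstO3, which S106>UASfoxo switch replicate 4, also high in those markers, does not share.

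The levels of several members were related to the marker content of a library. With the ovary and egg marker mean as a covariate, an alternative added after the data were seen, 3 members were called in S106>UASfoxo switch against S106>UASfoxo control, against 1467 of 9819 genes (14.9%). The 3 of 27 members were a smaller share than that of all genes. GstD3 then differed by -1.05 ± 0.30 (edgeR adjusted p 0.0345), GstE6 by -0.86 ± 0.27 (0.0430) and GstZ1 by -0.97 ± 0.30 (0.0445). Over the other 17 alternatives the adjusted p of GstD3 ran from 0.432 to 1.00, that of GstE6 from 0.435 to 1.00 and that of GstZ1 from 0.104 to 0.745. Without S106>UASfoxo control replicate 4 and without the covariate, the differences of GstD3 and GstE6 were -0.12 and -0.03. With the covariate 16 of the 27 genes were below 0. No member was called in the other 4 comparisons, where the covariate fit called 0% of all genes in S106 switch against S106 control and in the difference of the effects and 0.0917% in both comparisons of genotypes.

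Across the 17 libraries GstE14, which fell below the count filter, was related to the ovary and egg marker mean, with Pearson's r of 0.60 and Spearman's rho of 0.58 (permutation p 0.0118 and 0.0158, adjusted over 6 values 0.0441 for both). Leaving out the 2 most distant libraries on the marker axis gave r of 0.49. Centring within library rounds gave 0.26 (permutation p 0.370), so the relation did not pass within rounds. With so few counts and libraries per round, this cannot show that it is absent there. GstS1 was related inversely to the muscle marker mean, with r of -0.55 and rho of -0.53 (permutation p 0.0220 and 0.0297). Adjusted over the same 6 values, these p-values were 0.0441 and 0.0445. With adjustment over the larger set of relations described below, neither coefficient passed (adjusted permutation p 0.0804 and 0.0950). Its r was -0.39 without the 2 farthest libraries and -0.57 within rounds (adjusted p 0.125). GstD1 showed no relation to enterocyte markers that passed, with r of 0.14 and rho of 0.16 (permutation p 0.597 and 0.541, adjusted 0.597 for both), r of -0.09 without the 2 farthest libraries and -0.16 within rounds. Each point shares its library's scaling, and the marker means are related among themselves, with r of -0.73 between fat body and ovary and egg markers.

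In 135 relations of the 27 genes with 5 marker means, computed after the data were seen, a gene was counted where both r and rho passed after adjustment over both coefficients of all of them. With fat body markers r was above 0 for 6 such genes, GstE3, GstE9, GstE12, GstO3, GstT3 and GstT4, and below 0 for 3, GstD3, GstE6 and GstO1. With ovary and egg markers r was above 0 for GstD3, GstE6, GstO1 and GstS1 and below 0 for GstE9, GstE12, GstO3 and GstT3. GstE12 had r of 0.84 and rho of 0.74 with fat body markers (permutation p 6e-05 and 0.00081, adjusted 0.00147 and 0.00663), r of 0.87 without the 2 farthest libraries and 0.75 within rounds (adjusted p 0.249). GstE6 had r of 0.85 and rho of 0.87 with ovary and egg markers (permutation p 5e-05 and 1e-05, adjusted 0.00135 and 0.000675), r of 0.84 without the 2 farthest libraries and 0.71 within rounds (adjusted p 0.232). GstO1 had r of -0.89 and rho of -0.96 with fat body markers (adjusted permutation p 0.000675 for both, from raw values of 1e-05, the smallest 100000 permutations can give). Its r was -0.85 without the 2 farthest libraries and -0.86 within rounds (adjusted p 0.00135), and of the 135 relations this was the only one to pass both over all libraries and within rounds. With muscle markers 6 genes passed, GstE3, GstE5, GstE12, GstO3 and GstT4 with r above 0 and GstO1 below. With Malpighian tubule markers GstD2 and GstE7 passed, but r of GstD2 was 0.75 over all libraries and -0.39 within rounds, and r of GstE7 was 0.61 over all libraries, 0.44 without the 2 farthest and 0.17 within rounds (adjusted p 0.842). With enterocyte markers GstE3 had r of 0.63 and GstO1 r of -0.67, and within rounds these were 0.50 and -0.61 (adjusted p 0.276 and 0.249).

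**Figure D5:**
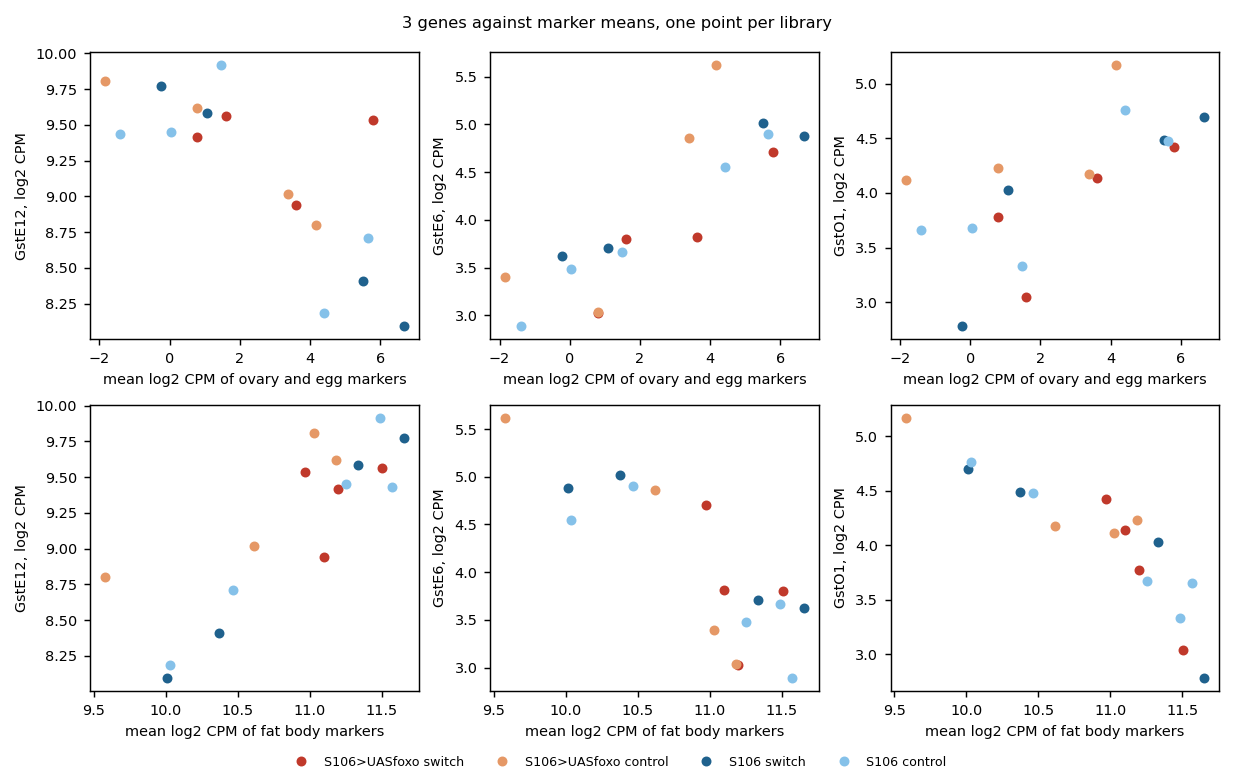
Log2 CPM of GstE12, GstE6 and GstO1 (vertical axes) against the mean log2 CPM of ovary and egg markers (upper row) and of fat body markers (lower row), with 1 point per library coloured by group. GstE12 runs against ovary and egg markers and with fat body markers, GstE6 and GstO1 the opposite way, and the 4 groups are mixed along each axis.

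Genes around the family were followed from lists of the glutathione system and of other detoxification enzymes, and none of their members was called in any comparison. In S106>UASfoxo switch against S106>UASfoxo control, the 5 genes of glutathione synthesis and turnover were all above 0, with a median log2 difference of 1.17, while all tested genes had a median of -0.02. Gss2, a glutathione synthetase, had 2.57 ± 1.10 (edgeR adjusted p 0.343), the gamma-glutamyl transpeptidase Ggt-1 1.28 ± 0.56 (0.355) and Gclm, the modifier subunit of glutamate-cysteine ligase, 0.64 ± 0.43 (0.554). The other glutathione enzymes had 4 of 10 above 0 and a median of -0.05. Among them were thioredoxin reductase Trxr1, which keeps glutathione reduced in flies, at 1.43 ± 0.43 (adjusted p 0.273), the glutathione-dependent formaldehyde dehydrogenase Fdh at 1.25 ± 0.49 (0.312) and the elongation factor subunit eEF1gamma, which has a transferase-like domain, at 1.18 ± 0.51 (0.343). In S106>UASfoxo control against S106 control the 5 genes of synthesis and turnover were all below 0, with a median of -0.99, and the 4 libraries are shared again.

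The CncC and Keap1 list of 5 genes had 3 above 0 and a median of 0.08 in S106>UASfoxo switch against S106>UASfoxo control, with cnc itself at 0.49 ± 0.29 (edgeR adjusted p 0.502). The 5 genes of tyrosine breakdown, the pathway of GstZ1 and GstZ2, were all above 0 with a median of 0.38, and Hpd, the dioxygenase that acts upstream of maleylacetoacetate, had 0.40 ± 0.41 (0.725). GstZ1, at -0.91, was on the other side of 0 from those 5, and GstZ2, at 0.24, on the same side. Neither was called. Ecdysone synthesis genes, which act in the pathway of GstE14, had 1 of 4 tested genes above 0 and a median of -0.54. Cytochrome P450 genes had 38 of 74 above 0 and a median of 0.02, and UDP-glycosyltransferase genes 8 of 20 and a median of -0.08. In the same comparison the median was 1.39 over the ovary and egg markers, 2.52 over the enterocyte markers and 0.37 over the fat body markers (10 of 12 above 0). None of these markers was called, and their part in the medians of the other lists was not tested.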

How the data were processed

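The deposited table holds raw read counts per gene, which the authors made with featureCounts after HISAT2 alignment, per the submitters' processing notes, which also name FastQC, SAMtools and DESeq2. The sources used here do not give the genome build, tool versions, strand setting or any use of molecular barcodes. Per the labels, RNA was extracted with Trizol and libraries were made with a directional poly(A) kit. Gut libraries were not analysed here.

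Symbols matched 14538 of 14649 rows. Coordinates and exon lengths come from the BDGP6 annotation. edgeR 4.0.16 (R 4.3.3) fitted the 4 groups together on the counts, with filterByExpr, TMM scaling and the robust quasi-likelihood test, Benjamini-Hochberg adjusted at 0.05. The 9819 tested genes held 99.92% of the counts, and the common biological coefficient of variation was 0.510. Log2 CPM used a prior count of 2. The fits were also run on simulated counts with 200 changed genes. Those counts held no differences in library round or tissue content, so that run does not cover such differences. The floors given for a count of 0 cover counting error only. SD and SE values include the spread between libraries, and the number of libraries limits precision.

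Values were named for up to 6 members with an unadjusted p under 0.05, or the 2 smallest, plus GstD1 and GstS1, and for up to 3 members of each list. The members and lists were chosen with earlier results of these data known. Alternatives were DESeq2 1.42.0, limma 3.58.1 (voom), RLE size factors, other filters, blocks and fewer libraries. Deviations from group means were correlated between libraries that share a title number. The coefficients lay between -0.06 and 0.58 in the S106>UASfoxo pairs, -0.05 and 0.04 in the switch pairs, -0.52 and 0.74 in the control pairs and -0.42 and 0.77 in the S106 pairs, and title numbers were therefore not treated as pairs. Library rounds, runs of consecutive library numbers, gave 0.41 to 0.74 in the control pairs, and only there were rounds judged to pair the libraries. The main fit used no pairs in any comparison, the control groups included. Title number and library round each entered as a block only in alternative fits, which were run for every comparison. Permutation p-values used 100000 resamples.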

Additional observations from a re-analysis of the deposited data

Results flagged for a closer look

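In 108 groups of 4 or 5 libraries, 7 groups, of 6 genes, had a library whose distance to the nearest other exceeded Dixon's 95% limit for the range of its group, and chance alone gives about 1 in 20. GstD5 stood at 2.87 CPM in S106>UASfoxo control replicate 3, where the other 3 libraries had 0.785 to 0.987 CPM. GstD5 also stood at 0.906 CPM in S106 control replicate 5, against 0.340 to 0.492 CPM in the others. In S106 control replicate 3, GstE7 was at 17.1 CPM against 6.87 to 8.31 CPM, and GstE11 at 8.11 CPM against 4.13 to 4.52 CPM. In S106>UASfoxo control replicate 4, which had the lowest fat body marker mean of the 17 libraries (9.58 log2 CPM), GstE13 was at 32.8 CPM against 17.5 to 20.0 CPM, and GstO1 at 36.0 CPM against 17.3 to 18.7 CPM. GstT3 was at 46.5 CPM in S106>UASfoxo switch replicate 2, against 36.0 to 37.7 CPM.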

How the results depend on the processing

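No member was called in any of the 5 comparisons with RLE size factors, DESeq2, limma-voom, either filter, either block or without the 3 libraries set aside. Those were S106>UASfoxo switch replicate 2 and S106 control replicate 4 for digestive transcripts, and S106 switch replicate 4 for ovarian transcripts. Nor was a member called in the 4 pairwise comparisons with the compared groups alone, or in any comparison refitted without 1 of its own libraries. The ovary and egg covariate was the exception, with 3 members and 1467 genes called in S106>UASfoxo switch against control; the cause was not tested. Over all genes, DESeq2 called 53 in that comparison, 1 in S106 switch against control, 18 between the control groups and 9 between the switch groups. Between the control groups, where edgeR called 4, limma-voom called 2, the compared groups alone 0, the replicate block 1, the library round block 2, the fit without the 3 libraries 0 and the covariate 9. Between the switch groups, where edgeR called 5, the compared groups alone and the fit without the 3 libraries each called 1, and the covariate 9. With single libraries left out these counts ran from 0 to 1 and from 2 to 4.

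GstS1 changed sign in 3 comparisons. Between the control groups (-0.04) it was 0.0017 with limma-voom, 0.043 for the compared groups alone, 0.13 with the replicate block, 0.011 with the covariate and -0.16 to 0.11 with single libraries left out. Without the 3 libraries it was 0.10 in the difference of the switch effects and 0.030 between the switch groups. The relation of GstS1 to muscle markers was -0.39 without the 2 farthest libraries, and that of GstE14 to ovary and egg markers 0.49, and 0.26 within rounds. GstD1 and enterocyte markers gave -0.087 and -0.16 under the same alternatives, and GstD2 and Malpighian tubule markers -0.39 within rounds. Genes at 1 CPM or less rest on few counts.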
